A study of Mus musculus with 8 samples.

Results

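Collagens, laminins, matrix metalloproteinases, their tissue inhibitors and lysyl oxidases build, cross-link and degrade the extracellular matrix. Their transcripts were followed in mouse liver after adenoviral delivery of a hairpin against Dnajb9 or against Rictor. Members were taken by gene symbol, as every entry named Col, Lama, Lamb, Lamc, Mmp, Timp or Lox with a chain or family number (Lox itself included), which gave 85 of the 24062 gene entries. Of these, 58 passed the filter on low counts and were tested and 27 did not.

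The livers were those of C57BL/6 mice, wild-type, lean and fed ad libitum. Each mouse was given 0.1 OD of adenovirus, and tissue was taken 1 week afterwards, once food had been withdrawn for 6 h. The groups were shDnajb9 with its control lacZ1, in mice of 3 months, and shRictor with its control lacZ2, in mice of 4 months, with 2 libraries in each group. Dnajb9 encodes the endoplasmic reticulum co-chaperone ERdj4, and Rictor encodes a defining subunit of mTOR complex 2. Neither the cargo of the lacZ viruses nor the number of animals behind a group's libraries is in the labels, and the p-values therefore measure only the spread between these libraries, which may be technical.

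Fibrillar collagens form the tensile fibres of the interstitium, whereas type IV collagen and laminins form the sheets of basement membranes. Lysyl oxidases cross-link collagen and elastin, matrix metalloproteinases cut matrix proteins, and TIMPs block these proteases. In liver, stellate cells are the main known source of fibrillar collagen, the sinusoids lack a continuous basement membrane, and several metalloproteinases are known from macrophages and neutrophils.

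Total RNA depleted of ribosomal RNA was sequenced, and between 6426164 and 11383532 counts per library were assigned to genes. Each targeted gene was lower under its own hairpin without passing the test. Dnajb9 had 22.0 and 20.3 CPM in shDnajb9 livers, against 30.6 and 38.0 CPM in lacZ1 livers (log2 fold change -0.70, SE 0.25, adjusted p = 0.056), and Rictor had 40.1 and 41.9 CPM in shRictor livers, against 52.3 and 65.1 CPM in lacZ2 livers (log2 fold change -0.52, SE 0.28, adjusted p = 0.231), where CPM is the count scaled to library size with TMM factors. Rictor was also lower under the Dnajb9 hairpin, at 33.3 and 63.3 CPM in shDnajb9 livers, against 65.4 and 68.7 CPM in lacZ1 livers. The log2 fold change was -0.46 (SE 0.28, adjusted p = 0.239 in edgeR), close to that under its own hairpin. The lower Rictor level was therefore not particular to the Rictor hairpin. Dnajb9 did not fall under the Rictor hairpin (0.41, SE 0.24, adjusted p = 0.271 in edgeR). In shDnajb9 replicate 1 and lacZ2 replicate 1 the nuclear RNA Rpph1 took 4.70% and 4.26% of gene counts, against 1.11% to 2.03% in the other 6 libraries, so these libraries stand apart and counts are also given without them.

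More matrix genes fell than rose under both hairpins. In shDnajb9 livers, 20 of the 58 tested genes fell and 2 rose at a Benjamini-Hochberg adjusted p under 0.05 over 13767 genes (edgeR), while 12.6% of all tested genes fell and 11.6% rose. In shRictor livers, 15 fell and 4 rose, while 10.9% of all tested genes fell and 7.31% rose. Among the genes counted as falling, Col6a6, Mmp8 and Timp1 passed the filter on low counts only through lacZ libraries. These genes could hardly have been called as rises. Called in both comparisons were 14 genes, each in the same direction in both, which is 63.6% of the 22 genes called under shDnajb9 and 73.7% of the 19 called under shRictor. Over all tested genes, where 24.2% were called under shDnajb9 and 18.2% under shRictor, those called in both in the same direction were 45.6% of the shDnajb9 calls and 60.4% of the shRictor calls. The comparisons used separate control libraries.

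The plot of fold changes by class shows where these calls lie. The counts called in each class below stand against 24.2% of all tested genes called under shDnajb9 and 18.2% under shRictor. The median log2 fold change was -0.65 over the 58 genes and -0.05 over all tested genes in the shDnajb9 comparison, and -0.56 and -0.02 in the shRictor comparison. Both shDnajb9 libraries lay below both lacZ1 libraries for 35 of the 58 genes, against 35.1% of all tested genes, and above them for 8, against 32.4%. In the other experiment, 30 genes had both shRictor values under both lacZ2 values, against 31.6% of all tested genes, and 14 had them above, against 28.8%. Without shDnajb9 replicate 1 and lacZ2 replicate 1, 15 of 60 tested matrix genes fell and 3 rose under shDnajb9, while 6.59% of all tested genes fell and 5.38% rose. The same fit gave 12 that fell and 3 that rose under shRictor, while 8.30% of all tested genes fell and 4.42% rose. Leaving out lacZ1 replicate 1 gave 12 calls under shDnajb9 (10 fell, 2 rose), with 7.07% of all genes called, and leaving out lacZ2 replicate 1 or shRictor replicate 1 gave 11 and 10 under shRictor, with 7.51% and 8.15% of all genes called. Scaled by total counts alone, 27 fell and 2 rose under shDnajb9 and 22 fell and 3 rose under shRictor, the median of all tested genes was -0.46 and -0.42, and among all genes 3349 fell and 610.0 rose under shDnajb9 and 2807 fell and 437 rose under shRictor. Among the matrix genes named, 12 further calls came on total counts and 10 without the filter on low counts, and these are not repeated gene by gene. Calls that held in all 19 alternatives numbered 12 under shDnajb9 and 9 under shRictor.

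**Figure D1:**
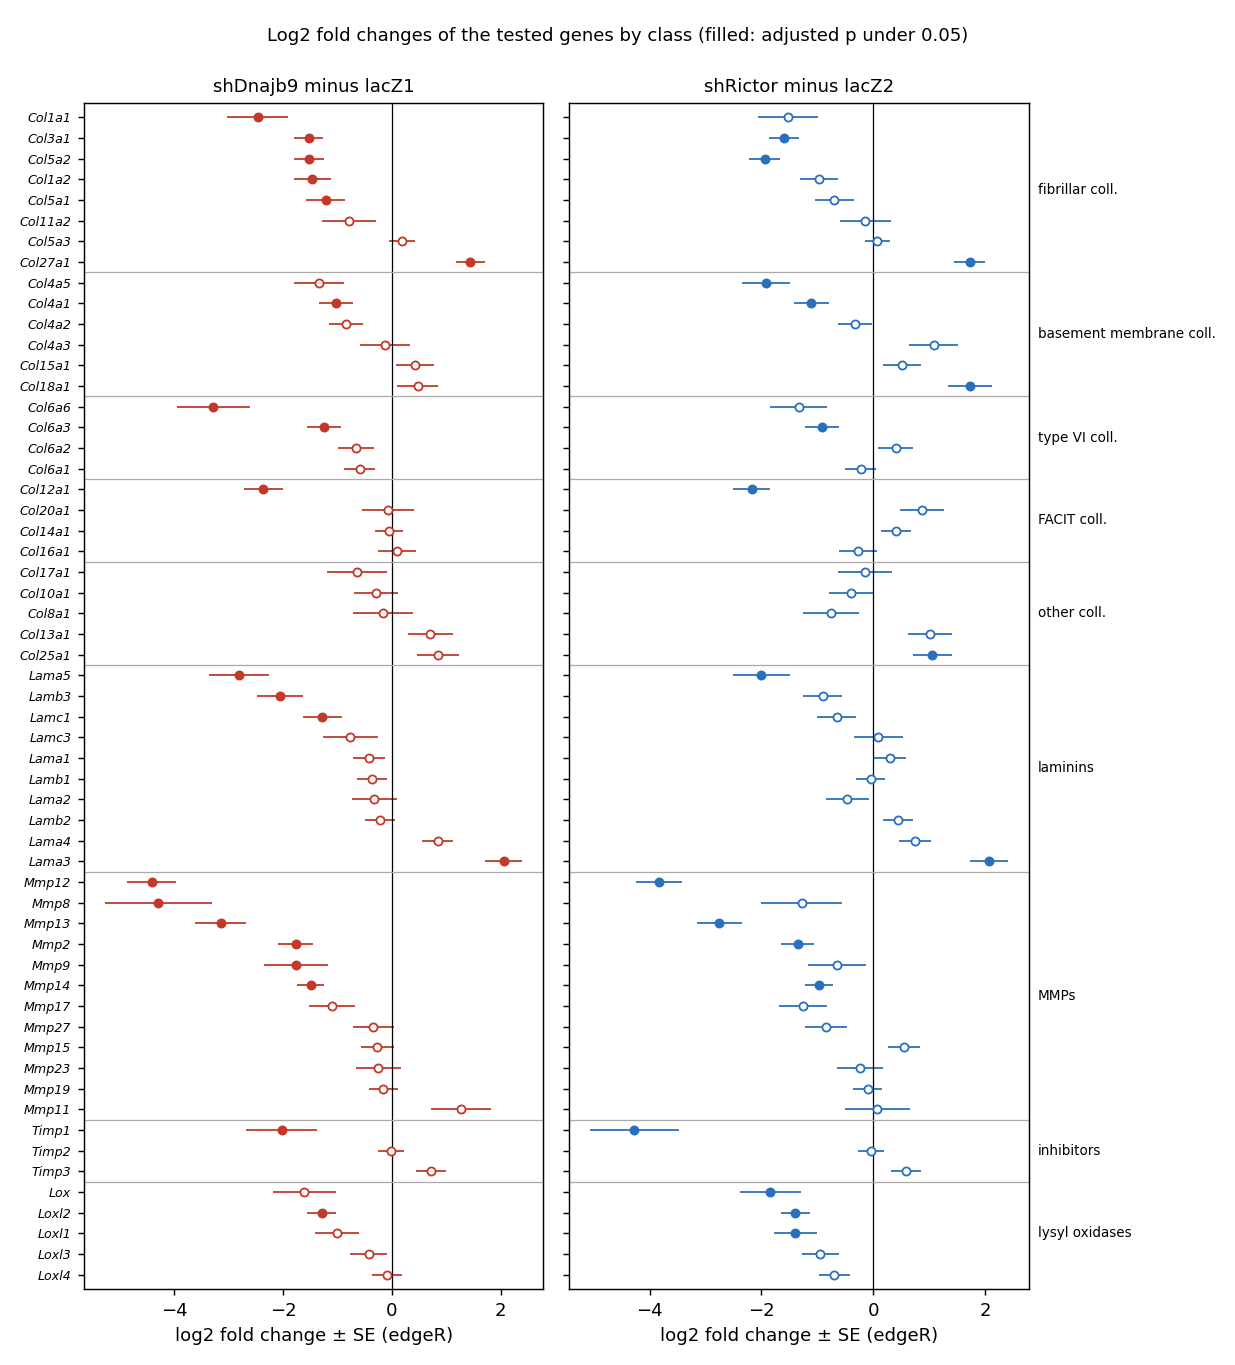
Log2 fold changes (x axis, with the standard error from edgeR as bars) of 57 of the 58 tested genes, grouped by class from top to bottom. The left panel shows shDnajb9 minus lacZ1 and the right panel shRictor minus lacZ2. Filled points passed an adjusted p under 0.05, which were 22 genes on the left and 19 on the right, most of them below 0. The fitted values of Col6a6 and Mmp8 on the left and of Timp1 on the right rest on at most 3 counts in the hairpin group.

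Matrix genes are long, and fold changes moved with transcript length in the shDnajb9 comparison. The 58 genes had a median longest transcript of 5.33 kb, against 3.33 kb over all tested genes. Among all tested genes the median log2 fold change under shDnajb9 was 0.53 for transcripts up to 1 kb and -0.38 for those over 6 kb, and under shRictor it was -0.08 and 0.06. In the class over 6 kb, the 21 matrix genes had a median of -0.84 under shDnajb9 and -0.46 under shRictor. With the length and GC trend of each library removed, an alternative added after the data were seen, 16 genes fell and 8 rose under shDnajb9 (median -0.28, against -0.03 over all genes), while 13.9% of all tested genes fell and 13.7% rose. The 8 that rose are 13.8% of the 58, about the share of all genes. Under shRictor 22 fell and 4 rose (median -0.60, against -0.02), while 13.6% of all tested genes fell and 10.9% rose.

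**Figure D2:**
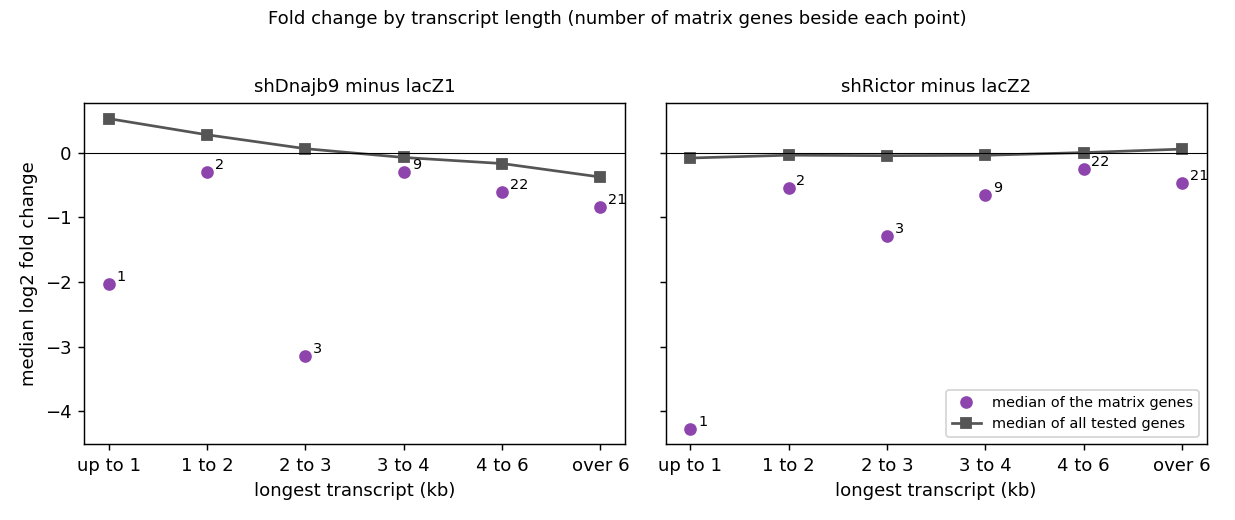
Median log2 fold change (y axis) by length of the longest transcript (x axis, kb), for the matrix genes (circles, with their number) and for all tested genes (squares). The left panel shows shDnajb9 minus lacZ1, where the median of all genes runs from 0.53 to -0.38, and the right panel shows shRictor minus lacZ2, where it runs from -0.08 to 0.06.

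Fibrillar collagen genes mostly fell where they passed the test, and Col27a1 rose. Of 11 genes in the class 8 were tested, of which 5 fell and 1 rose in shDnajb9 livers and 2 fell and 1 rose in shRictor livers. Col3a1, the chain of type III collagen, had 95.3 and 78.6 CPM in shDnajb9 livers, against 274 and 226 CPM in lacZ1 livers (log2 fold change -1.52, SE 0.27, adjusted p = 0.00192). The second pair of groups had 65.6 and 81.5 CPM in shRictor livers, against 216 and 229 CPM in lacZ2 livers (log2 fold change -1.59, SE 0.27, adjusted p = 0.00147). No hairpin library reached the lowest of its control libraries. Col5a2, a chain of the type V collagen that controls fibril diameter, lies 24.6 kb from Col3a1 on the opposite strand. It had 13.8 and 8.44 CPM in shDnajb9 livers, against 33.7 and 28.8 CPM in lacZ1 livers (log2 fold change -1.52, SE 0.28, adjusted p = 0.00271), and 6.94 and 9.29 CPM in shRictor livers, against 29.2 and 33.6 CPM in lacZ2 livers (log2 fold change -1.95, SE 0.28, adjusted p = 0.000602). The groups were apart for Col5a2 in both experiments.

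The chains of type I collagen, the most abundant fibrillar collagen of the body, fell in shDnajb9 livers with a wide spread among controls. Col1a1 had 12.6 and 8.67 CPM in shDnajb9 livers, against 82.0 and 33.2 CPM in lacZ1 livers (log2 fold change -2.47, SE 0.57, adjusted p = 0.00919). Col1a2 had 25.1 and 18.7 CPM in shDnajb9 livers, against 76.6 and 42.9 CPM in lacZ1 livers (log2 fold change -1.46, SE 0.34, adjusted p = 0.0102). In both controls replicate 1 was the higher library, and no hairpin library reached the lower one. In the other experiment Col1a1 had 9.76 and 21.5 CPM in shRictor livers, against 69.3 and 22.0 CPM in lacZ2 livers (log2 fold change -1.53, SE 0.54, adjusted p = 0.0663), and Col1a2 had 21.9 and 31.7 CPM in shRictor livers, against 66.0 and 39.5 CPM in lacZ2 livers (log2 fold change -0.97, SE 0.33, adjusted p = 0.0621). Both missed the test. Where a call depends on a setting, the value in parentheses is the log2 fold change under it. The Col1a1 call under shDnajb9 ended without lacZ1 replicate 1, shDnajb9 replicate 1 or shDnajb9 replicate 2 (-1.69, -2.73 and -2.20 in this order, adjusted p = 0.132 to 0.144), and the Col1a2 call without lacZ1 replicate 1 or shDnajb9 replicate 2 (-1.01 and -1.25 in this order, adjusted p = 0.0517 to 0.119). Under shRictor, Col1a1 passed without lacZ2 replicate 2 or the length and GC trend (-2.12 and -1.51 in this order, adjusted p = 0.0161 to 0.0288) and Col1a2 passed without lacZ1 replicate 1, lacZ1 replicate 2, lacZ2 replicate 2 or the length and GC trend (-0.96, -0.96, -1.28 and -0.98 in this order, adjusted p = 0.018 to 0.0471), or on the 4 libraries alone (-0.97, adjusted p = 0.0292).

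Col27a1, a fibrillar collagen described in cartilage, went the other way. It had 38.5 and 52.4 CPM in shDnajb9 livers, against 20.2 and 13.2 CPM in lacZ1 livers (log2 fold change 1.44, SE 0.27, adjusted p = 0.003). The other experiment gave 77.5 and 62.2 CPM in shRictor livers, against 20.1 and 22.2 CPM in lacZ2 livers (log2 fold change 1.72, SE 0.27, adjusted p = 0.000968). Every hairpin library lay above every control library. Col5a1, the other main type V chain, had 17.0 and 16.0 CPM in shDnajb9 livers, against 49.5 and 26.4 CPM in lacZ1 livers (log2 fold change -1.21, SE 0.36, adjusted p = 0.0279), and its values overlapped between shRictor and lacZ2 livers (-0.70, SE 0.35, adjusted p = 0.191). The shDnajb9 call for Col5a1 ended without lacZ1 replicate 1, shDnajb9 replicate 1, shDnajb9 replicate 2, both libraries that stand apart or the length and GC trend (-0.71, -1.25, -1.17, -1.25 and -0.53 in this order, adjusted p = 0.0926 to 0.288), whereas under shRictor it passed without the length and GC trend (-0.75, adjusted p = 0.0358). Col5a3, a further type V chain, had log2 fold changes near 0 (0.18, SE 0.23, adjusted p = 0.585 under shDnajb9 and 0.07, SE 0.23, adjusted p = 0.866 under shRictor), which were -0.23 and -0.33 on total counts. With the length and GC trend removed, Col5a3 passed as a rise under shDnajb9 (0.81, adjusted p = 0.0156). Col11a2 passed in neither comparison, with log2 fold changes of -0.79 and -0.14, and Col2a1, Col11a1 and Col24a1 were not tested.

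The windows of 150 bases before the RefSeq start are shown for Col3a1 and Col1a2, which fell, and for Col27a1, the one fibrillar gene that rose. Capitals mark a CCAAT box (CCAAT or its reverse complement) or a TATA box (TATAAA on either strand), found by exact match on GRCm38.p6, all on the plus strand of the genome and of the gene.
Col3a1, chr1:45311388-45311537: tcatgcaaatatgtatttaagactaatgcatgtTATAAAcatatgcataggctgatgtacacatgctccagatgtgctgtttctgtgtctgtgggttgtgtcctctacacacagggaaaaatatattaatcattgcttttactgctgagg
Col1a2, chr6:4505468-4505617: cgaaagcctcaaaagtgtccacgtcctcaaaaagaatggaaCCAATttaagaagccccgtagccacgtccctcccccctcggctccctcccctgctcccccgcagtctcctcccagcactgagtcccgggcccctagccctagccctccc
Col27a1, chr4:63215262-63215411: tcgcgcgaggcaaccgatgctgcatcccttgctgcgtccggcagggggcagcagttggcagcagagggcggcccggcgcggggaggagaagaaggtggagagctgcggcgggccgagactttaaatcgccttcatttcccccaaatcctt
Col3a1 held TATAAA with its first base 117 bases before the start, Col1a2 held CCAAT at 109 bases, and Col27a1 held neither. The share of all 32851 windows of this length with a match was 24.5% for CCAAT and 7.57% for TATAAA. Promoter entries existed for 61 of the 85 genes, in 68 windows, of which 11 held CCAAT and 10 held TATAAA.

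**Figure D3:**
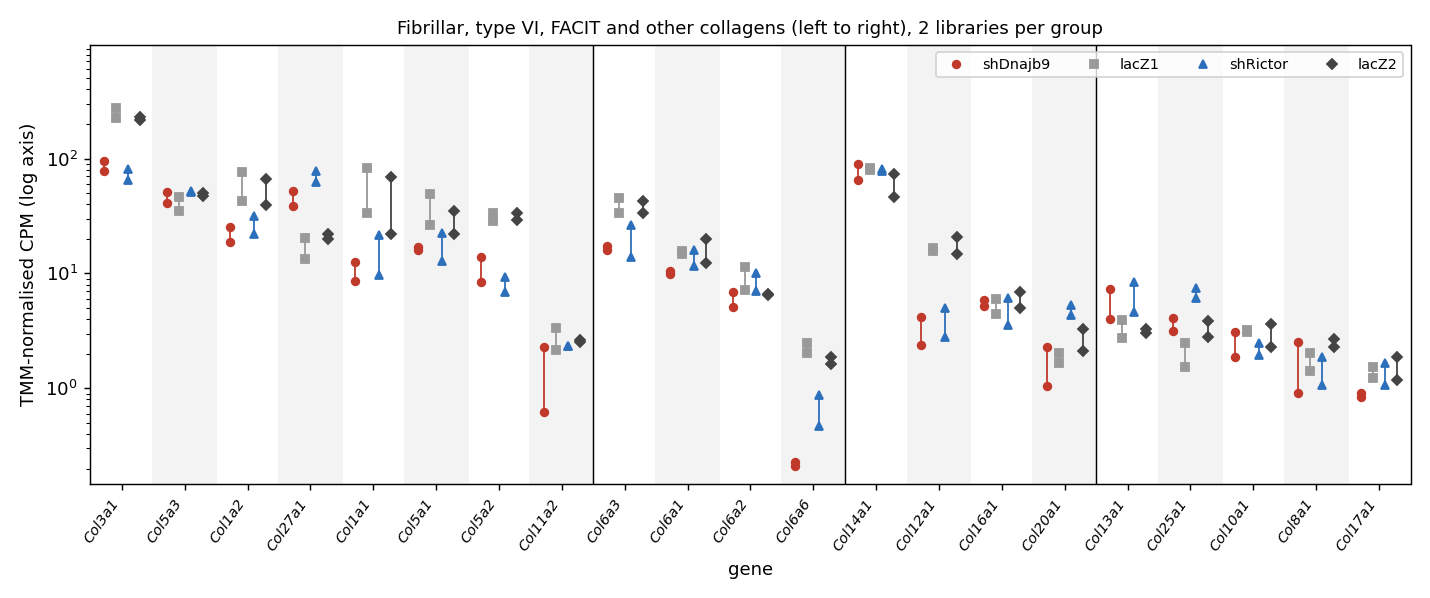
TMM-normalised CPM (y axis, log scale) of each tested fibrillar, type VI, FACIT and other collagen gene (x axis, classes separated by lines). Each point is 1 library and a line joins the 2 libraries of a group, in the order shDnajb9, lacZ1, shRictor, lacZ2. Col3a1 lies between 65.6 and 95.3 CPM in the hairpin libraries and between 216 and 274 CPM in the controls, and Col27a1 is the reverse.

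Basement membrane collagens did not move as a block. Of 8 genes 6 were tested, with 1 falling under shDnajb9 and 2 falling and 1 rising under shRictor. The shDnajb9 count is below the 24.2% of all tested genes called there. Col4a1, which with Col4a2 makes the common type IV collagen, had 104 and 142 CPM in shDnajb9 livers, against 297 and 204 CPM in lacZ1 livers (log2 fold change -1.03, SE 0.31, adjusted p = 0.0302). Its levels in the other experiment were 78.6 and 122 CPM in shRictor livers, against 206 and 225 CPM in lacZ2 livers (log2 fold change -1.11, SE 0.31, adjusted p = 0.0261). Each hairpin library was below both of its controls. Col4a2, whose gene starts head to head with Col4a1 on chromosome 8, had 54.5 and 75.5 CPM in shDnajb9 livers, against 144 and 89.4 CPM in lacZ1 livers (log2 fold change -0.84, SE 0.31, adjusted p = 0.0612), and 46.9 and 76.9 CPM in shRictor livers, against 73.6 and 81.9 CPM in lacZ2 livers (log2 fold change -0.33, SE 0.30, adjusted p = 0.509). It missed the test in both, and its shRictor and lacZ2 values overlapped. The Col4a1 call ended under shDnajb9 without lacZ1 replicate 1, shDnajb9 replicate 1, both libraries that stand apart or the length and GC trend (-0.76, -0.82, -0.82 and -0.48 in this order, adjusted p = 0.117 to 0.259), and under shRictor without lacZ2 replicate 1, lacZ2 replicate 2 or shRictor replicate 1 (-1.17, -1.02 and -0.82 in this order, adjusted p = 0.0771 to 0.231). Col4a2 passed under shDnajb9 without lacZ1 replicate 2 or shDnajb9 replicate 2 (-1.15 and -1.10 in this order, adjusted p = 0.0414 to 0.0449).

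Col4a5, an X-linked type IV chain of specialised basement membranes, had 4.12 and 6.26 CPM in shRictor livers, against 25.3 and 14.5 CPM in lacZ2 livers (log2 fold change -1.92, SE 0.43, adjusted p = 0.00889). In the Dnajb9 experiment it had 8.38 and 2.51 CPM in shDnajb9 livers, against 12.5 and 13.1 CPM in lacZ1 livers, where it missed the test (-1.34, SE 0.46, adjusted p = 0.0506). The groups were apart in both experiments. The shRictor call ended without lacZ2 replicate 1 or shRictor replicate 1 (-1.48 and -1.66 in this order, adjusted p = 0.0783 to 0.0857), and the shDnajb9 comparison passed without shDnajb9 replicate 1, lacZ2 replicate 1, lacZ2 replicate 2 or both libraries that stand apart (-2.34, -1.36, -1.36 and -2.34 in this order, adjusted p = 0.00277 to 0.0445), or under the replicate block (-1.38, adjusted p = 0.0466), at a minimum of 2 CPM in 2 libraries (-1.34, adjusted p = 0.0498), in DESeq2 (-1.27, adjusted p = 0.0337), in limma-voom (-1.64, adjusted p = 0.028) or on the 4 libraries alone (-1.33, adjusted p = 0.0354).

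Col18a1, whose product carries the endostatin fragment and is also made by hepatocytes, had the highest level of the set. It had 843 and 1584 CPM in shRictor livers, against 366 and 367 CPM in lacZ2 livers (log2 fold change 1.73, SE 0.39, adjusted p = 0.00862). The Dnajb9 hairpin experiment gave 728 and 822 CPM in shDnajb9 livers, against 670.4 and 444 CPM in lacZ1 livers (log2 fold change 0.48, SE 0.38, adjusted p = 0.366). Both hairpin groups lay above their controls, with shRictor replicate 2 far above replicate 1. The shRictor call ended without shRictor replicate 2 (1.21, adjusted p = 0.106), and the shDnajb9 comparison passed without the length and GC trend (1.06, adjusted p = 0.0196). Summed hepatocyte markers were higher in the same libraries (59206 and 67527 CPM in shRictor livers, against 20201 and 40134 CPM in lacZ2 livers), and their part in the Col18a1 result was not tested. Per kilobase of exon, Col18a1 averaged 104 CPM over the 8 libraries, the next being Col4a1 with 23.1, Mmp19 with 16.8 and Col3a1 with 16.1 CPM per kb. The other tested genes, Col4a3 and Col15a1, passed in neither comparison, with log2 fold changes of -0.13 and 0.43 under shDnajb9 and 1.08 and 0.51 under shRictor.

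Laminins are trimers of an alpha, a beta and a gamma chain, and all 11 chain genes were tested. Under shDnajb9, 3 fell and 1 rose, where 24.2% of all tested genes were called. Under shRictor, 1 fell and 1 rose, which is about the 18.2% of all tested genes called there. Lama5, an alpha chain, had 7.54 and 6.96 CPM in shDnajb9 livers, against 74.8 and 26.2 CPM in lacZ1 livers (log2 fold change -2.81, SE 0.55, adjusted p = 0.00395). In the other experiment it had 9.41 and 17.1 CPM in shRictor livers, against 78.3 and 29.2 CPM in lacZ2 livers (log2 fold change -2.01, SE 0.51, adjusted p = 0.017). Replicate 1 of each control lay well above replicate 2, and the hairpin libraries lay below both. The call under shDnajb9 ended without lacZ1 replicate 1, shDnajb9 replicate 1 or shDnajb9 replicate 2 (-1.88, -2.86 and -2.75 in this order, adjusted p = 0.0584 to 0.107), and under shRictor without shDnajb9 replicate 1, shDnajb9 replicate 2, lacZ2 replicate 1, shRictor replicate 1, shRictor replicate 2 or both libraries that stand apart (-2.0, -2.0, -1.13, -1.64, -2.50 and -1.13 in this order, adjusted p = 0.0533 to 0.248), or under the replicate block (-1.79, adjusted p = 0.0618).

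Lama3, an alpha chain of epithelial laminins, rose. It had 22.0 and 26.9 CPM in shDnajb9 livers, against 5.67 and 6.20 CPM in lacZ1 livers (log2 fold change 2.05, SE 0.35, adjusted p = 0.00155). The second pair of groups had 26.2 and 27.8 CPM in shRictor livers, against 3.60 and 9.05 CPM in lacZ2 livers (log2 fold change 2.06, SE 0.34, adjusted p = 0.00129). The 4 hairpin libraries spanned 22.0 to 27.8 CPM and the 4 controls 3.60 to 9.05 CPM. The calls held without each library in turn, and without lacZ2 replicate 2 the log2 fold change under shRictor was 2.92.

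Lamb3, which joins Lama3 in an epithelial laminin trimer, did not rise with it. Lamb3 had 1.68 and 2.28 CPM in shDnajb9 livers, against 9.48 and 7.51 CPM in lacZ1 livers (log2 fold change -2.06, SE 0.43, adjusted p = 0.00497), and 4.82 and 8.89 CPM in shRictor livers, against 9.41 and 16.3 CPM in lacZ2 livers (log2 fold change -0.91, SE 0.35, adjusted p = 0.0898). It fell under shDnajb9 and missed the test under shRictor, where it passed without both libraries that stand apart or the length and GC trend (-1.24 and -0.95 in this order, adjusted p = 0.0398 to 0.0476). Lamc1, the common gamma chain, had 18.9 and 36.6 CPM in shDnajb9 livers, against 81.0 and 54.7 CPM in lacZ1 livers (log2 fold change -1.27, SE 0.36, adjusted p = 0.0235), and 27.2 and 51.2 CPM in shRictor livers, against 66.8 and 56.7 CPM in lacZ2 livers (log2 fold change -0.65, SE 0.35, adjusted p = 0.227). Its shDnajb9 call ended without lacZ1 replicate 1, shDnajb9 replicate 1 or both libraries that stand apart (-0.98, -0.89 and -0.89 in this order, adjusted p = 0.171 to 0.2), and under shRictor it passed without the length and GC trend (-0.73, adjusted p = 0.0359). Lama1, Lama2, Lama4, Lamb1, Lamb2 and Lamc3 passed in neither comparison, with log2 fold changes between -0.76 and 0.84 under shDnajb9 and between -0.46 and 0.74 under shRictor.

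**Figure D4:**
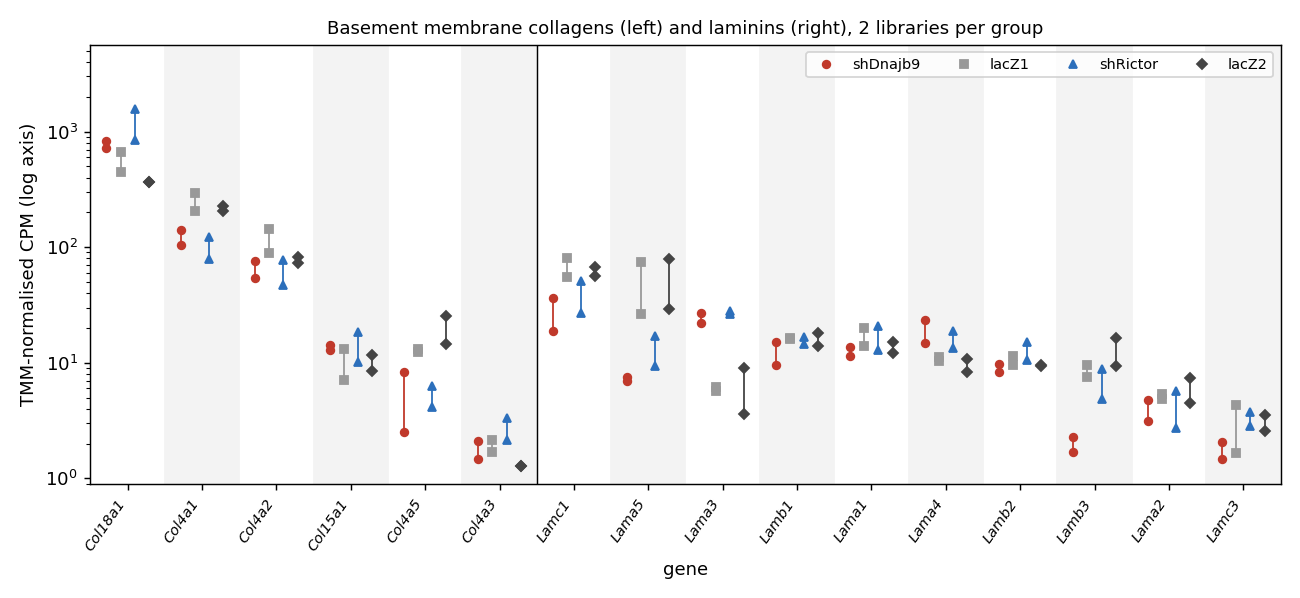
TMM-normalised CPM (y axis, log scale) of the tested basement membrane collagen genes (left of the line) and 10 of the 11 laminin genes (right), with 2 libraries per group in the order shDnajb9, lacZ1, shRictor, lacZ2. Lama3 stands at 22.0 to 27.8 CPM in the hairpin libraries and 3.60 to 9.05 CPM in the controls, while Lama5 and Lamb3 lie lower in the hairpin libraries than in their controls.

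Among type VI collagens, which form beaded filaments around cells, 4 of 6 genes were tested. Col6a3 had 17.2 and 16.1 CPM in shDnajb9 livers, against 45.3 and 33.6 CPM in lacZ1 livers (log2 fold change -1.25, SE 0.31, adjusted p = 0.0128). The other experiment gave 13.8 and 26.4 CPM in shRictor livers, against 43.1 and 33.4 CPM in lacZ2 livers (log2 fold change -0.92, SE 0.30, adjusted p = 0.0494), just inside the threshold. Both hairpin groups lay below their controls. Its shDnajb9 call ended without lacZ1 replicate 1, shDnajb9 replicate 1, both libraries that stand apart or the length and GC trend (-1.04, -1.29, -1.30 and -0.66 in this order, adjusted p = 0.0531 to 0.11), and its shRictor call without lacZ1 replicate 1, lacZ1 replicate 2, lacZ2 replicate 1, lacZ2 replicate 2, shRictor replicate 1 or both libraries that stand apart (-0.91, -0.91, -0.73, -1.08, -0.53 and -0.73 in this order, adjusted p = 0.0597 to 0.343), or under the replicate block (-0.92, adjusted p = 0.0555), with RLE factors (-0.89, adjusted p = 0.0538), in DESeq2 (-0.90, adjusted p = 0.0536) or with the pairing crossed (-0.93, adjusted p = 0.0736). Its partner chains Col6a1 and Col6a2 passed in neither comparison, at log2 fold changes of -0.59 and -0.66 under shDnajb9 and -0.23 and 0.40 under shRictor.

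Col6a6, a further type VI chain, had 1 and 2 counts in shDnajb9 livers, against 28 and 17 in lacZ1 livers. Only lacZ libraries carried it through the filter on low counts. The ratio of the sums, 3 to 45 and scaled by library size, was 0.0969 (exact 95% interval 0.0193 to 0.302), with an adjusted p of 0.00458 in edgeR. The other experiment gave 0.471 and 0.880 CPM in shRictor livers, against 1.63 and 1.86 CPM in lacZ2 livers (log2 fold change -1.33, SE 0.51, adjusted p = 0.091). It missed the test there and passed without the length and GC trend (-1.42, adjusted p = 0.0475).

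FACIT collagens sit on the surface of fibrils, and 4 of 9 genes were tested. Col12a1 was the only one called, in both comparisons, and 1 of 4 is near the 24.2% and 18.2% of all tested genes called. It had 4.19 and 2.40 CPM in shDnajb9 livers, against 15.6 and 16.8 CPM in lacZ1 livers (log2 fold change -2.36, SE 0.36, adjusted p = 0.000794). Its levels in the other experiment were 2.82 and 4.99 CPM in shRictor livers, against 14.9 and 20.6 CPM in lacZ2 livers (log2 fold change -2.17, SE 0.33, adjusted p = 0.000859). The hairpin libraries spanned 2.40 to 4.99 CPM and the controls 14.9 to 20.6 CPM. Col14a1, the FACIT gene with the highest CPM, had 65.1 and 90.3 CPM in shDnajb9 livers, against 79.1 and 82.6 CPM in lacZ1 livers, and 77.4 and 81.0 CPM in shRictor livers, against 46.7 and 72.7 CPM in lacZ2 livers. It passed in neither comparison (-0.05, SE 0.26, adjusted p = 0.9 under shDnajb9 and 0.41, SE 0.26, adjusted p = 0.322 under shRictor), and nor did Col16a1 or Col20a1, with log2 fold changes of 0.09 and -0.07 under shDnajb9 and -0.28 and 0.86 under shRictor.

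Of the other 10 collagen genes 5 were tested and 1 was called, under shRictor, which is near the 18.2% of all tested genes called there. Col25a1, a transmembrane collagen, had 6.12 and 7.53 CPM in shRictor livers, against 3.83 and 2.79 CPM in lacZ2 livers (log2 fold change 1.06, SE 0.34, adjusted p = 0.0492). The Dnajb9 hairpin experiment gave 3.14 and 4.11 CPM in shDnajb9 livers, against 2.48 and 1.55 CPM in lacZ1 livers (log2 fold change 0.84, SE 0.39, adjusted p = 0.127), which passed without the length and GC trend (1.07, adjusted p = 0.0463). The shRictor call ended without lacZ1 replicate 1, lacZ1 replicate 2, lacZ2 replicate 1, lacZ2 replicate 2, shRictor replicate 1, shRictor replicate 2 or both libraries that stand apart (1.06, 1.06, 1.29, 0.85, 1.20, 0.90 and 1.29 in this order, adjusted p = 0.0572 to 0.237), or on total counts (0.64, adjusted p = 0.254), under the replicate block (1.06, adjusted p = 0.0554), at a minimum of 2 CPM in 2 libraries (1.05, adjusted p = 0.0517), in DESeq2 (1.08, adjusted p = 0.0806) or with the pairing crossed (1.07, adjusted p = 0.0536). The other 4 tested genes (Col8a1, Col10a1, Col13a1 and Col17a1) ranged from -0.64 to 0.70 under shDnajb9 and from -0.75 to 1.02 under shRictor on the log2 scale, and none passed.

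Of 21 matrix metalloproteinase genes 12 were tested, and 6 fell under shDnajb9 and 4 under shRictor, with none called as a rise. The secreted elastase Mmp12, known from macrophages, had 0.628 and 3.76 CPM in shDnajb9 livers, against 46.5 and 60.0 CPM in lacZ1 livers (log2 fold change -4.41, SE 0.44, adjusted p = 8.54e-05). In the other experiment it had 4.47 and 3.42 CPM in shRictor livers, against 60.1 and 52.4 CPM in lacZ2 livers (log2 fold change -3.84, SE 0.41, adjusted p = 0.000135). The hairpin libraries spanned 0.628 to 4.47 CPM and the controls 46.5 to 60.1 CPM. The shDnajb9 libraries differed from each other, and the log2 fold change was -3.81 when replicate 1 of shDnajb9 was left out and -6.38 when replicate 2 was. The collagenase Mmp13 had 0.419 and 1.14 CPM in shDnajb9 livers, against 6.55 and 9.05 CPM in lacZ1 livers (log2 fold change -3.14, SE 0.47, adjusted p = 0.000691). The second pair of groups had 1.41 and 1.56 CPM in shRictor livers, against 12.7 and 7.78 CPM in lacZ2 livers (log2 fold change -2.76, SE 0.40, adjusted p = 0.000631). The groups were apart for Mmp13 in both experiments, and its shDnajb9 value was -4.17 without shDnajb9 replicate 2.

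Mmp12 (chromosome 9, 7344381 to 7369499) and Mmp13 (chromosome 9, 7272514 to 7283331) lie 61.0 kb apart on the plus strand of GRCm38, by GENCODE M21. Mmp3, Mmp10, Mmp8, Mmp27, Mmp20 and Mmp7 follow downstream. Mmp8, a neutrophil collagenase, had 1 and 0 counts in shDnajb9 livers, against 21 and 13 in lacZ1 livers, which gave a scaled ratio of 0.0428 (exact 95% interval 0.00105 to 0.255). Only lacZ libraries carried Mmp8 through the filter on low counts. The adjusted p was 0.00865 in edgeR, and the call ended without lacZ1 replicate 1 or shDnajb9 replicate 2 (-4.14 and -2.96 in this order, adjusted p = 0.0605 to 0.0708) and had no adjusted p in DESeq2. Mmp8 in the other experiment had 0.588 and 0.195 CPM in shRictor livers, against 1.05 and 0.846 CPM in lacZ2 livers (log2 fold change -1.28, SE 0.72, adjusted p = 0.248). Mmp27, 2.91 kb from Mmp8, was not called in either comparison, with log2 fold changes of -0.34 under shDnajb9 and -0.84 under shRictor. Mmp3, Mmp7, Mmp10 and Mmp20 had at most 10 counts in any library and were not tested.

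The promoter windows of the members of this cluster that were called are printed because these neighbours fell together under shDnajb9. Capitals mark the AP-1 motif TGANTCA, which reads the same on both strands, and TATAAA. RefSeq gives 2 starts for Mmp12, and the downstream one is shown.
Mmp12, chr9:7347224-7347373: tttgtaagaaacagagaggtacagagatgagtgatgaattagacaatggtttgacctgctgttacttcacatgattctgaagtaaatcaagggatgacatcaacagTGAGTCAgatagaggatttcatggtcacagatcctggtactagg
Mmp13, chr9:7272364-7272513: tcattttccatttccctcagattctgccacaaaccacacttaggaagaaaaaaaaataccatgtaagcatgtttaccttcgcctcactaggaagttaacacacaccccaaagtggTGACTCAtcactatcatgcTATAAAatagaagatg
Mmp8, chr9:7558279-7558428: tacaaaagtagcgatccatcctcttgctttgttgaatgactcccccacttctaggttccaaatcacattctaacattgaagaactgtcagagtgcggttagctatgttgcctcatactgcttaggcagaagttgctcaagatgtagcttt
The AP-1 letters began 44 bases before the start of Mmp12 and 35 bases before that of Mmp13, whereas the Mmp8 window and the window of the upstream Mmp12 start held none. Over the 61 members with an entry, 7 genes held TGANTCA (Col6a1, Mmp3, Mmp7, Mmp10, Mmp12, Mmp13 and Mmp20), and 4.24% of all 32851 windows held it. A match describes the letters only.

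Mmp14, the membrane-type protease that activates pro-Mmp2, had 24.9 and 22.8 CPM in shDnajb9 livers, against 80.6 and 53.4 CPM in lacZ1 livers (log2 fold change -1.49, SE 0.25, adjusted p = 0.00153). The other experiment gave 31.6 and 35.8 CPM in shRictor livers, against 66.4 and 65.9 CPM in lacZ2 livers (log2 fold change -0.97, SE 0.24, adjusted p = 0.0157). Its substrate Mmp2, a gelatinase known from stellate cells, had 2.72 and 2.17 CPM in shDnajb9 livers, against 8.95 and 7.39 CPM in lacZ1 livers (log2 fold change -1.77, SE 0.32, adjusted p = 0.00245). Both proteases were lower in every hairpin library than in every control. Mmp2 in the other experiment had 3.29 and 3.71 CPM in shRictor livers, against 8.60 and 9.39 CPM in lacZ2 livers (log2 fold change -1.35, SE 0.29, adjusted p = 0.00648). The shRictor calls ended for Mmp14 without lacZ2 replicate 1, lacZ2 replicate 2, shRictor replicate 1 or shRictor replicate 2 (-0.97, -0.96, -0.88 and -1.06 in this order, adjusted p = 0.0551 to 0.118) and for Mmp2 without shRictor replicate 1 (-1.27, adjusted p = 0.0593).

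Mmp9, the gelatinase of neutrophils and macrophages, fell under shDnajb9 near the threshold. It had 0.628 and 1.14 CPM in shDnajb9 livers, against 4.61 and 1.67 CPM in lacZ1 livers (log2 fold change -1.76, SE 0.58, adjusted p = 0.0434). The call ended without lacZ1 replicate 1, shDnajb9 replicate 1, shDnajb9 replicate 2, lacZ2 replicate 1, lacZ2 replicate 2, both libraries that stand apart or the length and GC trend (-0.84, -1.48, -2.33, -1.76, -1.76, -1.49 and -1.58 in this order, adjusted p = 0.0525 to 0.496), or under the replicate block (-1.61, adjusted p = 0.0504), in DESeq2 (-1.75, adjusted p = 0.0504) or in limma-voom (-1.61, adjusted p = 0.0824). Mmp9 in the other experiment had 2.00 and 1.27 CPM in shRictor livers, against 2.67 and 2.45 CPM in lacZ2 livers (log2 fold change -0.66, SE 0.52, adjusted p = 0.426). Mmp15, a membrane-type protease, had 45.0 and 68.2 CPM in shDnajb9 livers, against 86.1 and 50.4 CPM in lacZ1 livers, and 78.6 and 101 CPM in shRictor livers, against 57.3 and 65.5 CPM in lacZ2 livers. Mmp15 and Mmp19, which with Mmp14 had the highest CPM of the class, passed in neither comparison, with log2 fold changes of -0.27 and -0.15 under shDnajb9 and 0.55 and -0.10 under shRictor. The remaining tested genes Mmp11, Mmp17 and Mmp23 lay between -1.10 and 1.27 under shDnajb9 and between -1.26 and 0.07 under shRictor, and none passed. Of the 50-base stretches of Mmp19, 24.7% also occur in another gene, mostly Tmem198b, so its counts are uncertain.

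Of the 4 tissue inhibitors, 3 were tested and Timp1 fell, having passed the filter on low counts only through lacZ libraries. Timp1, an inhibitor induced by inflammation and in activated stellate cells, had 0 and 2 counts in shRictor livers, against 15 and 33 in lacZ2 livers. The scaled ratio of the sums, 2 to 48, was 0.0454 (exact 95% interval 0.00535 to 0.173), with an adjusted p of 0.00291 in edgeR. The Dnajb9 hairpin experiment gave 0.838 and 0.342 CPM in shDnajb9 livers, against 2.04 and 2.38 CPM in lacZ1 livers (log2 fold change -2.02, SE 0.66, adjusted p = 0.0403). Both hairpin groups lay below their controls. The shDnajb9 call ended without lacZ1 replicate 1, lacZ1 replicate 2, shDnajb9 replicate 1, shDnajb9 replicate 2 or both libraries that stand apart (-2.16, -1.91, -2.64, -1.38 and -2.64 in this order, adjusted p = 0.0587 to 0.229), or in DESeq2 (-2.0, adjusted p = 0.0626). Timp2, which also takes part in pro-Mmp2 activation, had log2 fold changes of -0.01 under shDnajb9 and -0.04 under shRictor, and their sign changed with the size factors or the libraries used. Timp3, which stays bound to the matrix, had 50.1 and 54.0 CPM in shDnajb9 livers, against 31.0 and 32.4 CPM in lacZ1 livers (log2 fold change 0.72, SE 0.27, adjusted p = 0.0703), and 59.4 and 33.3 CPM in shRictor livers, against 29.1 and 33.0 CPM in lacZ2 livers (log2 fold change 0.58, SE 0.27, adjusted p = 0.162). It lay above the controls in every hairpin library without passing, and passed under shDnajb9 without shRictor replicate 1, shRictor replicate 2 or the length and GC trend (0.72, 0.72 and 0.86 in this order, adjusted p = 0.0255 to 0.0452). Timp3 overlaps Syn3 on the other strand over 21.3% of its exon bases, so reads of the 2 genes may not be told apart.

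All 5 lysyl oxidase genes were tested, of which 1 fell under shDnajb9 and 3 under shRictor, with Loxl2 in both. Loxl2 had 12.6 and 13.1 CPM in shDnajb9 livers, against 34.4 and 28.5 CPM in lacZ1 livers (log2 fold change -1.29, SE 0.26, adjusted p = 0.00474). Its levels in the other experiment were 12.5 and 13.1 CPM in shRictor livers, against 40.9 and 26.6 CPM in lacZ2 livers (log2 fold change -1.39, SE 0.26, adjusted p = 0.00284). The hairpin libraries kept to 12.5 to 13.1 CPM and the controls to 26.6 to 40.9 CPM. Of its 50-base stretches 45.0% also occur elsewhere, mostly in the predicted gene Gm21451, so the count is uncertain. Loxl1, known for elastic fibre assembly, had 2.47 and 1.66 CPM in shRictor livers, against 6.39 and 4.48 CPM in lacZ2 livers (log2 fold change -1.39, SE 0.39, adjusted p = 0.0265). Lox, the founding member, had 0.823 and 0.684 CPM in shRictor livers, against 3.49 and 2.03 CPM in lacZ2 livers (log2 fold change -1.84, SE 0.55, adjusted p = 0.0333). Under shDnajb9 neither passed (Loxl1 -1.01, SE 0.40, adjusted p = 0.0817, and Lox -1.60, SE 0.58, adjusted p = 0.0599), and Lox passed under the replicate block (-1.5, adjusted p = 0.0486). The shRictor call of Loxl1 ended without lacZ2 replicate 1, shRictor replicate 1, shRictor replicate 2 or both libraries that stand apart (-1.13, -1.68, -1.12 and -1.13 in this order, adjusted p = 0.0599 to 0.184), and that of Lox without lacZ2 replicate 1, shRictor replicate 1, shRictor replicate 2 or both libraries that stand apart (-1.42, -1.96, -1.70 and -1.42 in this order, adjusted p = 0.116 to 0.197), or in limma-voom (-1.72, adjusted p = 0.0514). Loxl3, which overlaps Htra2 on the other strand over 11.6% of its exon bases, and Loxl4 passed in neither comparison, with log2 fold changes of -0.42 and -0.09 under shDnajb9 and -0.95 and -0.70 under shRictor.

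**Figure D5:**
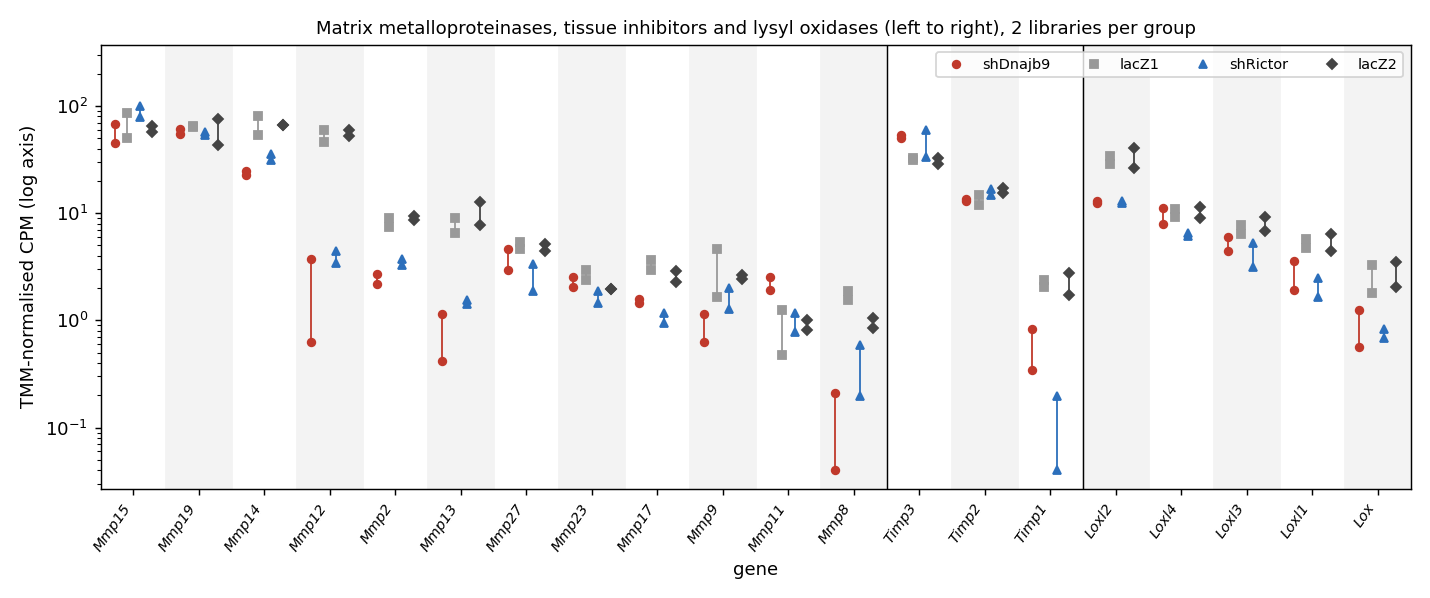
TMM-normalised CPM (y axis, log scale) of the tested matrix metalloproteinase, TIMP and lysyl oxidase genes (left to right, separated by lines), with 2 libraries per group in the order shDnajb9, lacZ1, shRictor, lacZ2. Values of 0, for Mmp8 in shDnajb9 replicate 2 and Timp1 in shRictor replicate 1, are drawn at 0.04. The hairpin libraries of Mmp12 and Mmp13 lie below all controls in both experiments.

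The 27 genes that were not tested had at most 19 counts in any library. Among them were cartilage and epithelial collagens such as Col2a1, Col9a1 and Col7a1, and Timp4. Col2a1, Col26a1, Mmp10 and Mmp20 had no count in any library, and differences in these genes were not detectable at this depth.

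Partner genes of the matrix were read beside the members, against the 24.2% of all tested genes called under shDnajb9 and the 18.2% called under shRictor. Of 19 tested genes for collagen maturation, 3 fell and 2 rose under shDnajb9, and 2 fell and 1 rose under shRictor (median log2 fold changes -0.18 and -0.28). These calls are 26.3% and 15.8% of the list, near the shares of all tested genes. Pcolce, which enhances procollagen processing, had 10.9 and 11.2 CPM in shDnajb9 livers, against 24.7 and 22.4 CPM in lacZ1 livers (log2 fold change -1.09, SE 0.24, adjusted p = 0.00719). It missed the test under shRictor (-0.62, SE 0.23, adjusted p = 0.0802). P4hb, the beta subunit of prolyl 4-hydroxylase and a protein disulfide isomerase, had 3117 and 1757 CPM in shDnajb9 livers, against 932 and 1082 CPM in lacZ1 livers (log2 fold change 1.27, SE 0.40, adjusted p = 0.0348). These moved in opposite directions. Serpinh1, the collagen chaperone HSP47, had 40.0 and 27.0 CPM in shRictor livers, against 61.6 and 60.6 CPM in lacZ2 livers (log2 fold change -0.87, SE 0.25, adjusted p = 0.0292). Bmp1, the procollagen C-proteinase, had 160.0 and 202 CPM in shRictor livers, against 89.6 and 91.5 CPM in lacZ2 livers (log2 fold change 1.00, SE 0.24, adjusted p = 0.0126). The calls ended for Pcolce without lacZ1 replicate 1 (-1.04, adjusted p = 0.0633), for P4hb without lacZ1 replicate 1, lacZ1 replicate 2, shDnajb9 replicate 1, shRictor replicate 1, shRictor replicate 2 or both libraries that stand apart (1.14, 1.37, 0.81, 1.27, 1.27 and 0.80 in this order, adjusted p = 0.0548 to 0.273), or on total counts (0.81, adjusted p = 0.06), for Serpinh1 without lacZ2 replicate 1, lacZ2 replicate 2, shRictor replicate 2 or both libraries that stand apart (-0.86, -0.87, -0.61 and -0.86 in this order, adjusted p = 0.0737 to 0.242) and for Bmp1 without lacZ2 replicate 1 or shRictor replicate 2 (0.99 and 0.82 in this order, adjusted p = 0.0744 to 0.109), or on total counts (0.59, adjusted p = 0.0867).

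Of 23 other matrix proteins, 7 fell and 2 rose under shDnajb9 and 5 fell and 2 rose under shRictor (39.1% and 30.4% of the list, median log2 fold changes -0.62 and -0.45). Nid1, the nidogen that bridges laminin and type IV collagen, had 36.7 and 47.5 CPM in shDnajb9 livers, against 218 and 163 CPM in lacZ1 livers (log2 fold change -2.18, SE 0.28, adjusted p = 0.000255). In the other experiment it had 39.6 and 52.0 CPM in shRictor livers, against 202 and 181 CPM in lacZ2 livers (log2 fold change -2.06, SE 0.28, adjusted p = 0.000402). The groups were well apart. Tnc, a glycoprotein of remodelling tissue, fell in both comparisons (-3.01, SE 0.36, adjusted p = 0.00019 under shDnajb9 and -1.53, SE 0.32, adjusted p = 0.00624 under shRictor). Ecm1, made by hepatocytes, rose in both (1.12, SE 0.27, adjusted p = 0.0119 under shDnajb9 and 1.65, SE 0.28, adjusted p = 0.00144 under shRictor), and the shDnajb9 call ended without lacZ1 replicate 1, lacZ1 replicate 2 or shDnajb9 replicate 2 (1.22, 1.01 and 0.74 in this order, adjusted p = 0.063 to 0.0827), or on total counts (0.72, adjusted p = 0.101). Thbs1 fell under shDnajb9 (-2.24, SE 0.28, adjusted p = 0.000249) and missed the test under shRictor (-0.73, SE 0.25, adjusted p = 0.0595).

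Of 19 tested matrix receptors, 4 fell and 1 rose under shDnajb9 and 7 fell and 1 rose under shRictor (26.3% and 42.1% of the list, median log2 fold changes -0.71 and -0.34), the first of these shares being near that of all tested genes. The integrin chain Itga6, a laminin receptor, fell in both (-1.12, SE 0.24, adjusted p = 0.0066 under shDnajb9 and -1.41, SE 0.24, adjusted p = 0.00156 under shRictor). Ddr1, a collagen-binding receptor kinase, had 0.838 and 2.28 CPM in shDnajb9 livers, against 17.4 and 7.74 CPM in lacZ1 livers (log2 fold change -2.88, SE 0.59, adjusted p = 0.00493), and 2.00 and 3.03 CPM in shRictor livers, against 17.7 and 6.76 CPM in lacZ2 livers (log2 fold change -2.24, SE 0.53, adjusted p = 0.012). The shDnajb9 call for Ddr1 ended without lacZ1 replicate 1 or shDnajb9 replicate 1 (-2.19 and -2.46 in this order, adjusted p = 0.0581 to 0.0772) and the shRictor call without lacZ2 replicate 1, shRictor replicate 1 or both libraries that stand apart (-1.41, -1.98 and -1.41 in this order, adjusted p = 0.0949 to 0.143). Bcam, which binds the laminin alpha 5 chain, fell under shRictor (-1.43, SE 0.28, adjusted p = 0.00363) and missed the test under shDnajb9 (-0.71, SE 0.29, adjusted p = 0.0891).

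Among 19 tested genes of other matrix-degrading proteases and their inhibitors, 4 fell and 2 rose under shDnajb9 and 7 fell and 3 rose under shRictor (31.6% and 52.6% of the list, median log2 fold changes -0.59 and -0.56). Plat, a plasminogen activator, fell in both (-2.38, SE 0.60, adjusted p = 0.0144 under shDnajb9 and -4.54, SE 0.58, adjusted p = 0.000348 under shRictor), and its shDnajb9 call ended without lacZ1 replicate 1, shDnajb9 replicate 1 or shDnajb9 replicate 2 (-2.32, -2.78 and -1.92 in this order, adjusted p = 0.0544 to 0.106). Adamts4, an aggrecanase, fell in both (-1.66, SE 0.38, adjusted p = 0.00822 under shDnajb9 and -1.84, SE 0.36, adjusted p = 0.00419 under shRictor). Serpine2, an inhibitor of plasminogen activators, rose in both (2.15, SE 0.36, adjusted p = 0.00136 under shDnajb9 and 1.19, SE 0.33, adjusted p = 0.0261 under shRictor), and its shRictor call ended without lacZ2 replicate 1, shRictor replicate 1 or both libraries that stand apart (0.76, 0.87 and 0.77 in this order, adjusted p = 0.15 to 0.202), or on total counts (0.82, adjusted p = 0.102).

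Of 24 tested genes of TGF-beta signalling and stellate activation, 3 fell and 3 rose under shDnajb9 and 2 fell and 3 rose under shRictor (median log2 fold changes -0.19 and -0.23). The called shares, 25.0% and 20.8%, are near the 24.2% and 18.2% of all tested genes. Acta2, smooth muscle actin and a mark of activated stellate cells, had 11.9 and 4.68 CPM in shDnajb9 livers, against 17.1 and 24.4 CPM in lacZ1 livers (log2 fold change -1.38, SE 0.40, adjusted p = 0.0267), and 6.94 and 6.74 CPM in shRictor livers, against 30.8 and 17.8 CPM in lacZ2 livers (log2 fold change -1.82, SE 0.39, adjusted p = 0.00717). Its calls ended under shDnajb9 without lacZ1 replicate 2 or shDnajb9 replicate 2 (-1.11 and -0.80 in this order, adjusted p = 0.116 to 0.136) and under shRictor without lacZ2 replicate 1 (-1.38, adjusted p = 0.0745). Tagln, also on this list, was lower without passing in edgeR (-0.39, adjusted p = 0.401 under shDnajb9 and -0.86, adjusted p = 0.0927 under shRictor). At the reported setting Tgfbr3 and Bmp7 rose in both (0.77 and 1.26 under shDnajb9, 0.97 and 1.21 under shRictor). Ltbp4, which binds latent TGF-beta, rose under shRictor (1.80, SE 0.36, adjusted p = 0.00461) and missed the test under shDnajb9 (0.89, SE 0.35, adjusted p = 0.0794). Ctgf, a TGF-beta and YAP target, rose under shDnajb9 (1.06, SE 0.30, adjusted p = 0.0215) and had a log2 fold change of -0.04 under shRictor. The Ctgf call ended without lacZ1 replicate 1 or shDnajb9 replicate 2 (0.69 and 0.91 in this order, adjusted p = 0.0695 to 0.256), or on total counts (0.66, adjusted p = 0.144).

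Markers of the cells that could supply these transcripts moved in part with the groups. Their called shares stand against 24.2% of all tested genes under shDnajb9 and 18.2% under shRictor, and several were near or below these. In bulk liver, fewer cells of a type and less RNA per cell cannot be told apart. Of 13 stellate cell markers, 1 fell and 2 rose under shDnajb9 (23.1%, near the share of all tested genes) and none was called under shRictor (edgeR). Their summed levels were 413 and 542 CPM in shDnajb9 livers and 368 and 441 CPM in lacZ1 livers. In the other experiment they were 490.0 and 402 CPM in shRictor livers and 405 and 414 CPM in lacZ2 livers. Both shDnajb9 sums lay within or above the range of lacZ1, and the shRictor sums spanned that of lacZ2. Portal fibroblast and mesothelial markers summed to 25.3 and 22.0 CPM in shDnajb9 livers, against 39.6 and 26.3 CPM in lacZ1 livers, and to 20.3 and 26.7 CPM in shRictor livers, against 33.4 and 34.8 CPM in lacZ2 livers. Of 5 tested among 11 listed, 0 were called under shDnajb9 and 1 fell under shRictor, and the mesothelial markers Msln, Upk3b, Wt1 and Upk1b had at most 11 counts in any library. Their part in the collagen results was not tested.

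Macrophage markers summed to 1643 and 1821 CPM in shDnajb9 livers, against 1837 and 2156 CPM in lacZ1 livers, and to 1066 and 1274 CPM in shRictor livers, against 1854 and 2074 CPM in lacZ2 livers. Of 11 tested, 2 fell under shDnajb9 (18.2%) and 3 under shRictor (27.3%), the first share being below that of all tested genes. Neutrophil markers summed to 1.05 and 1.03 CPM in shDnajb9 livers, against 25.7 and 6.31 CPM in lacZ1 livers, and to 1.76 and 4.79 CPM in shRictor livers, against 14.4 and 4.06 CPM in lacZ2 livers. Of 5 tested, 4 fell under shDnajb9 and 1 fell under shRictor. The 4 (Ltf, Ngp, Camp and Mpo) had at most 2 counts in a shDnajb9 library. S100a9, which fell under shRictor, had 3 and 2 counts in shRictor livers. These genes passed the filter on low counts only through other libraries and could hardly have been called as rises. Their counts therefore carry no weight beside the Mmp8 and Mmp9 calls under shDnajb9. S100a8 and Retnlg, not tested, were at 0 in both shDnajb9 libraries. In lacZ1 livers they had 2 and 4 counts and 7 and 3 counts, in this order. Retnlg was at 0 in both shRictor libraries too. Elane, also not tested, went the other way, with 0.628 and 0.456 CPM in shDnajb9 livers, against 0.443 and 0.357 CPM in lacZ1 livers. The part of macrophages and neutrophils in the protease results was not tested.

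Endothelial markers summed to 797 and 982 CPM in shDnajb9 livers, against 889 and 822 CPM in lacZ1 livers. They summed to 855 and 849 CPM in shRictor livers, against 744 and 796 CPM in lacZ2 livers. Of 13 tested, 1 was called, a rise under shDnajb9 (7.7%), which is below the share of all tested genes. Cholangiocyte markers summed to 36.0 and 66.0 CPM in shDnajb9 livers, against 103 and 103 CPM in lacZ1 livers, and to 53.1 and 75.2 CPM in shRictor livers, against 68.2 and 121 CPM in lacZ2 livers. Of 6 tested, 2 fell under shDnajb9 (33.3%) and none was called under shRictor (edgeR). Hepatocyte markers summed to more, at 72228 and 60812 CPM in shDnajb9 livers, against 38120 and 51210 CPM in lacZ1 livers. Of 9 tested, 6 rose under shDnajb9 (66.7%) and 5 under shRictor (55.6%). Alb, the largest of them, went the other way under shDnajb9 without passing. It had 22397 and 25485 CPM in shDnajb9 livers, against 26225 and 35422 CPM in lacZ1 livers (log2 fold change -0.36, SE 0.57, adjusted p = 0.66 in edgeR). Ass1, an abundant liver enzyme gene on that list, had at most 2 counts in any library. Their part in the laminin and collagen results was not tested.

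No gene of the set passed a test of the difference between hairpin effects. This difference of the hairpin effects (shRictor minus lacZ2, less shDnajb9 minus lacZ1) was called for 0 of the 58 genes in edgeR, DESeq2 and limma-voom, with 3, 1 and 4 genes at an unadjusted p under 0.05. In edgeR 0.00726% of all tested genes were called and 10.9% had an unadjusted p under 0.05. No tested gene of the partner lists was called for the difference in edgeR. The differences had wide intervals, at -0.07 for Col3a1 (95% interval -0.87 to 0.72), 0.57 for Mmp12 (-0.70 to 1.85) and 0.01 for Lama3 (-1.04 to 1.07) on the log2 scale. Unequal responses within these intervals remain possible, and the test adjusted over all genes could miss larger ones. The unadjusted 3 in edgeR were Col18a1 (1.25, 95% interval 0.09 to 2.41), Col6a2 (1.06, 0.08 to 2.03) and Mmp8 (3.00, 0.01 to 5.99). The hairpin, the age of the mice and the experiment cannot be told apart in this comparison.

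The control groups were set against each other too. In lacZ2 minus lacZ1, 0 of the 58 genes were called by edgeR, DESeq2 or limma-voom, with 0 at an unadjusted p under 0.05. In edgeR 0% of all tested genes were called and 1.23% had an unadjusted p under 0.05. The log2 differences ran from -0.86 to 0.68 with a median of -0.01. These controls serve in the comparisons above and differ in age and experiment together.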

How the data were processed

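Ribosomal-RNA-depleted total RNA from 8 mouse liver libraries was used, 2 in each of the groups shDnajb9, lacZ1, shRictor and lacZ2, as the labels assign them. The deposited values are counts per gene made by the authors with HTSeq after cutadapt trimming on mm10, per the submitters' processing notes. Versions, the aligner, the annotation and the use of strand are not given in the sources used here, so a gene and its antisense partner may share counts. Between 48.42% and 63.74% of each table stood in the lines that name no gene and was left out of library sizes and tests.

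Counts were fitted with edgeR 4.0.16 (R 4.3.3) by quasi-likelihood with TMM factors and 4 group means over all 8 libraries, for the 13767 genes that passed filterByExpr at a minimum count of 10, which left 4 residual degrees of freedom. The threshold was 0.05 after Benjamini-Hochberg adjustment over these genes. SE is the log2 fold change divided by the root of F. With 2 libraries against 2 an exact permutation test cannot reach p = 0.05. The ratio intervals are exact and cover counting error only. The script was tested on simulated counts. Gene positions, lengths and shared 50-base stretches came from GENCODE M21 on GRCm38, and promoter windows from RefSeq on GRCm38.p6.

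The genes, partner lists and marker lists were chosen with earlier results of these data known. Genes named with values were those called in a comparison, the 3 highest in CPM of each class, the targets, and up to 6 called genes per partner list. Tagln, which was not called, was added beside Acta2. The alternatives were RLE factors, total counts, no filter, at least 2 CPM in 2 libraries, DESeq2 1.42.0, limma-voom (limma 3.58.1), the replicate number as a block, each library left out, shDnajb9 replicate 1 and lacZ2 replicate 1 left out together, and fits on 4 libraries. Removal of the length and GC trend and a crossed pairing were added after the data were seen. Values of a few of these genes are not reported here, but they are part of the fits and counts.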

Additional observations from a re-analysis of the deposited data

Results flagged for a closer look

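A signal outside the gene counts was higher in the hairpin libraries than in their controls. The line of each table for reads without a unique alignment held 41.3% and 41.97% of all counts in shDnajb9 livers, against 22.88% and 24.88% in lacZ1 livers. It held 32.69% and 26.72% in shRictor livers, against 24.59% and 24.23% in lacZ2 livers. Its part in the fold changes of the matrix genes was not tested.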

How the results depend on the processing

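The count of called matrix genes was 12 to 23 under shDnajb9 and 10 to 18 under shRictor when each library was left out in turn, and within 1.5 times the reported counts under every other alternative run. Leaving out libraries gave 998 to 4142 called genes of all tested under shDnajb9, 1053 to 3009 under shRictor, 0 to 19 for the difference of hairpin effects and 0 to 1 for lacZ2 minus lacZ1. It gave for the partner lists, under shDnajb9 and then shRictor, 0 to 5 and 0 to 4 (maturation), 6 to 9 and 3 to 9 (matrix proteins), 2 to 7 and 2 to 9 (receptors), 3 to 7 and 4 to 11 (other proteases), and 2 to 5 and 1 to 8 (TGF-beta). Without shDnajb9 replicate 1 and lacZ2 replicate 1 together, 1675 genes were called under shDnajb9, 0 for the difference, 1 maturation gene and 3 receptors under shDnajb9, and 5 receptors and 3 TGF-beta genes under shRictor. Without a filter, 395 genes were called for the difference, 13 for lacZ2 minus lacZ1, 10 TGF-beta genes in each comparison and 11 matrix proteins under shRictor. DESeq2 called 45 genes for the difference and 1 for lacZ2 minus lacZ1. On total counts 10 receptors and 10 other proteases were called under shDnajb9. On 4 libraries 3 TGF-beta genes were called under shDnajb9 and 8 under shRictor, and 8 under shRictor without the length and GC trend. The cause was not tested.

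The replicate numbers share only a name: same-numbered libraries deviated with r = -0.30 under shDnajb9 and r = -0.03 under shRictor. With the replicate block 23 matrix genes were called under shDnajb9 and 16 under shRictor, and 3 of all genes for the difference. With the pairing crossed the counts were 22 and 17.

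Among the matrix genes named, the direction changed only in genes that were not called. Under shDnajb9 these were Col5a3 (-0.000571 to 0.373 with a library left out, -0.233 on total counts), Col14a1 (-0.313 to 0.165 with a library left out, 0.161 without both libraries that stand apart, 0.259 without the length and GC trend), Col16a1 (-0.095 to 0.311 with a library left out, -0.323 on total counts), Mmp15 (-0.604 to 0.152 with a library left out, 0.248 without the length and GC trend), Timp2 (-0.158 to 0.132 with a library left out, 0.0125 with RLE factors, 0.0129 in DESeq2, 0.15 without the length and GC trend) and Loxl4 (-0.32 to 0.148 with a library left out, 0.156 without the length and GC trend). Under shRictor these were Col5a3 (-0.33 on total counts), Col6a1 (-0.517 to 0.17 with a library left out), Col6a2 (-0.00932 on total counts), Col16a1 (-0.731 to 0.0492 with a library left out), Mmp19 (-0.447 to 0.374 with a library left out) and Timp2 (-0.138 to 0.0498 with a library left out, 0.0313 without both libraries that stand apart). The filter on low counts left 27 matrix genes without a test.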
